A study of Homo sapiens with 2 samples.

Results

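The genes described here are 28 that build cholesterol and fatty acids or regulate that synthesis, of 57894 annotated genes with a transcript in the tables. They were chosen by name: 5 sterol regulators (SREBF1, SREBF2, SCAP, INSIG1 and INSIG2), 7 enzymes of the mevalonate and isoprenoid steps, 11 enzymes of the sterol branch, the sterol carrier STARD4 and 4 enzymes of fatty acid synthesis. Earlier results of these data were known when they were chosen. Among them is no lipoprotein receptor, so sterol uptake was not analysed here. They were compared between HEK293 cells, a line from human embryonic kidney, without engineered change (parental, 2 libraries) and HEK293 cells of clone 1-11 with a LARP7 knockout (2 libraries), both grown in medium with serum and with no treatment named. LARP7 is an RNA-binding protein that stabilises 7SK RNA. Every knockout library comes from this 1 clone, so other differences between the clone and the parental cells cannot be told apart from the knockout. The source field of the knockout sample reads wildtype, and its group was taken from the genotype field and title.

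Sequencing depth was 12851942 to 18483220 estimated reads per library. The labels do not say whether the paired libraries of each kind were grown as separate cultures, so the p-values cover a spread that may be technical. 7SK RNA, whose loss checks the knockout, had a normalised read count of 5572 and 5481 in parental cells against 169 and 205 in knockout cells. LARP7 mRNA was at 59.8 and 46.5 against 36.1 and 31.9, short of the threshold when adjusted over every gene tested (edgeR adjusted p = 0.135). These counts are CPM, reads scaled to a common library size with TMM factors, and they serve all comparisons between groups below. Of 12 markers of hepatocytes, adipocytes, adrenal cells, leukocytes and endothelium, 5 had no read in any library and the highest reached 3.08 CPM. Their summed level was 3.58 and 3.18 CPM in parental against 4.32 and 6.27 CPM in knockout libraries. Of 4 genes listed for HEK293 cells, NEFM, a neurofilament subunit, fell from 49.4 and 73.6 CPM to 7.76 and 8.58 (log2 -2.91, edgeR adjusted p = 0.00164). The other listed genes did not pass: the filament gene VIM was at 447 and 396 against 521 and 508 CPM, NEFL at 87 and 97.5 against 82.7 and 92, and the keratin gene KRT18 at 16 and 10.2 against 19.1 and 18.6. Fragments were longer in the knockout libraries by the difference between transcript length and effective length (232.9 and 225.8 bases) than in the parental libraries (217 and 206.7), and an offset for effective length was among the alternatives. Mitochondrial genes took 11.5 and 12.4% of reads in parental against 8.25 and 7.6% in knockout libraries, and small RNA genes 3.38 and 5.21% against 2.49 and 2.77%. Parental replicate 2 had the fewest reads, the shortest fragments and the largest share of small RNA genes and of mitochondrial reads. The part of these differences in the results was not tested.

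Cells adjust sterol synthesis through the SREBP transcription factors, made from SREBF1 and SREBF2 as precursors that sit in the membrane of the endoplasmic reticulum. SCAP binds the precursors and escorts them to the Golgi, where proteases free the active part, and the INSIG proteins hold SCAP back when sterols are plentiful. Freed SREBP switches on INSIG1 and most enzymes of the pathway, with the SREBF2 product known mainly for sterol genes and that of SREBF1 for fatty acid genes. Because of this shared control the genes often change together when a cell gains or loses sterol.

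RefSeq promoter sequences (GRCh38.p14) were matched for 24 of the 28 genes and not for ACAT2, FDFT1, SQLE and FASN. The 250 bases before the start were searched on both strands for the letters TCACNCCAC (a form of the sterol regulatory element), CACGTG (E-box), CCAAT and GGGCGG (GC box). The first was found in SREBF2 alone of the 24, and in 1.09% of all genes with a promoter sequence. CCAAT was found in 19 of the 24 genes (79.2%), against 37% of all genes and 41.6% of those tested for expression. GGGCGG was found in 23 (95.8%), against 46.2% and 73.8%, and CACGTG in 3 (INSIG1, SC5D and SCAP; 12.5%), against 7.73% and 11.15%. Of the 24 genes, 7 have more than 1 start in the table, and a match in any of them was counted. Matches describe letters only, and no binding was measured.

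Printed here are the promoters of the 3 genes with the smallest p-values in the comparison below (SCAP, INSIG1 and LSS) and that of SREBF2, which holds the sterol element. Each is written 5′ to 3′ on the strand of its gene and ends at the last base before the RefSeq start. Capitals mark TCACNCCAC, CACGTG and CCAAT on either strand, CCAAT on the other strand being ATTGG. The SREBF2 stretch (chr22:41832855-41833104, plus strand) carries the sterol element from 133 bases before the start and CCAAT from 106 bases. That of INSIG1 (chr7:155297628-155297877, plus strand) has CCAAT from 170 bases and CACGTG from 55 bases before the start. That of SCAP (chr3:47475942-47476191, minus strand) has CACGTG from 58 bases and that of LSS (chr21:46228775-46229024, minus strand) CCAAT from 150 bases before the start. The SCAP stretch lies wholly inside the gene as annotated for the counts (47413694 to 47477126). Those of INSIG1, LSS and SREBF2 each overlap the annotated start of their gene.
SREBF2: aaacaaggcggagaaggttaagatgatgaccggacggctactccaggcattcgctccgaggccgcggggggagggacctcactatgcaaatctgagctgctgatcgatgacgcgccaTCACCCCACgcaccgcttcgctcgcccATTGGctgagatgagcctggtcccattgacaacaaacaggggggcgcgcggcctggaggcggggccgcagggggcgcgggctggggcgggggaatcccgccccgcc
INSIG1: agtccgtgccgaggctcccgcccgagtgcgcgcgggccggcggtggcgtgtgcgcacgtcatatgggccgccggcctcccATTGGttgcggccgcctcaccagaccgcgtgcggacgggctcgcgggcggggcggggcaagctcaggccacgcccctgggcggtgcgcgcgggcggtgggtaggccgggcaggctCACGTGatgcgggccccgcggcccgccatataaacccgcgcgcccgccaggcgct
SCAP: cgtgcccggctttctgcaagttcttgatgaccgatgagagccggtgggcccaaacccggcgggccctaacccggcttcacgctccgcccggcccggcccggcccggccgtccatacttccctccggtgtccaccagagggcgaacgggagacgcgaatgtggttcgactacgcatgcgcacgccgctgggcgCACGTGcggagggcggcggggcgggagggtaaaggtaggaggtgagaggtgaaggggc
LSS: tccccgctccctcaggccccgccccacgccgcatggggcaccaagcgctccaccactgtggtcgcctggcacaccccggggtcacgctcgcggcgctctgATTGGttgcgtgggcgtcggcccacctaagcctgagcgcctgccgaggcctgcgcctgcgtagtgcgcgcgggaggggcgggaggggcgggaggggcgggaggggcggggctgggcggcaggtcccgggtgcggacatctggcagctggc

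All 28 genes were expressed in parental cells and all passed the filter on low counts. Levels between genes were compared as TPM, which scales by transcript length, within parental cells. SCD, which desaturates newly made fatty acids, was the highest, at 183 and 128 TPM in the 2 libraries. SQLE, which makes the epoxide of squalene, followed at 90.7 and 65.6 TPM, and FDFT1, which joins farnesyl groups into squalene, at 74.5 and 56.9. SQLE was above FDFT1 within each parental library, although the ranges of SQLE and FDFT1 across these libraries overlapped. The lowest were PMVK, the second kinase of the mevalonate steps, at 2.82 and 2.64 TPM, and MVK, the first, at 4.52 and 1.72. Among the regulators SCAP had 37.1 and 29.5 TPM, INSIG1 26.1 and 22.3, SREBF1 19.8 and 21, SREBF2 17.4 and 18.5, and INSIG2 7.53 and 3.99. This order differed by scale. In CPM, SREBF2 (113 and 125) was above SCAP (86.5 and 89.2) in each parental library. SCAP-201, of 4394 bases, held 63.3 and 56.6% of SCAP reads but 25.1 and 23.2% of its TPM in parental cells, the rest lying mostly in shorter transcripts. SREBF1 TPM rested in part on SREBF1-209, a retained-intron transcript of 374 bases that held 7.86 and 6.42% of the gene's reads but 43.6 and 35% of its TPM in parental cells, and the level of SREBF1 relative to SREBF2 differed by scale: SREBF2 had 4.41 and 3.51 times the CPM of SREBF1 in parental cells.

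**Figure D1:**
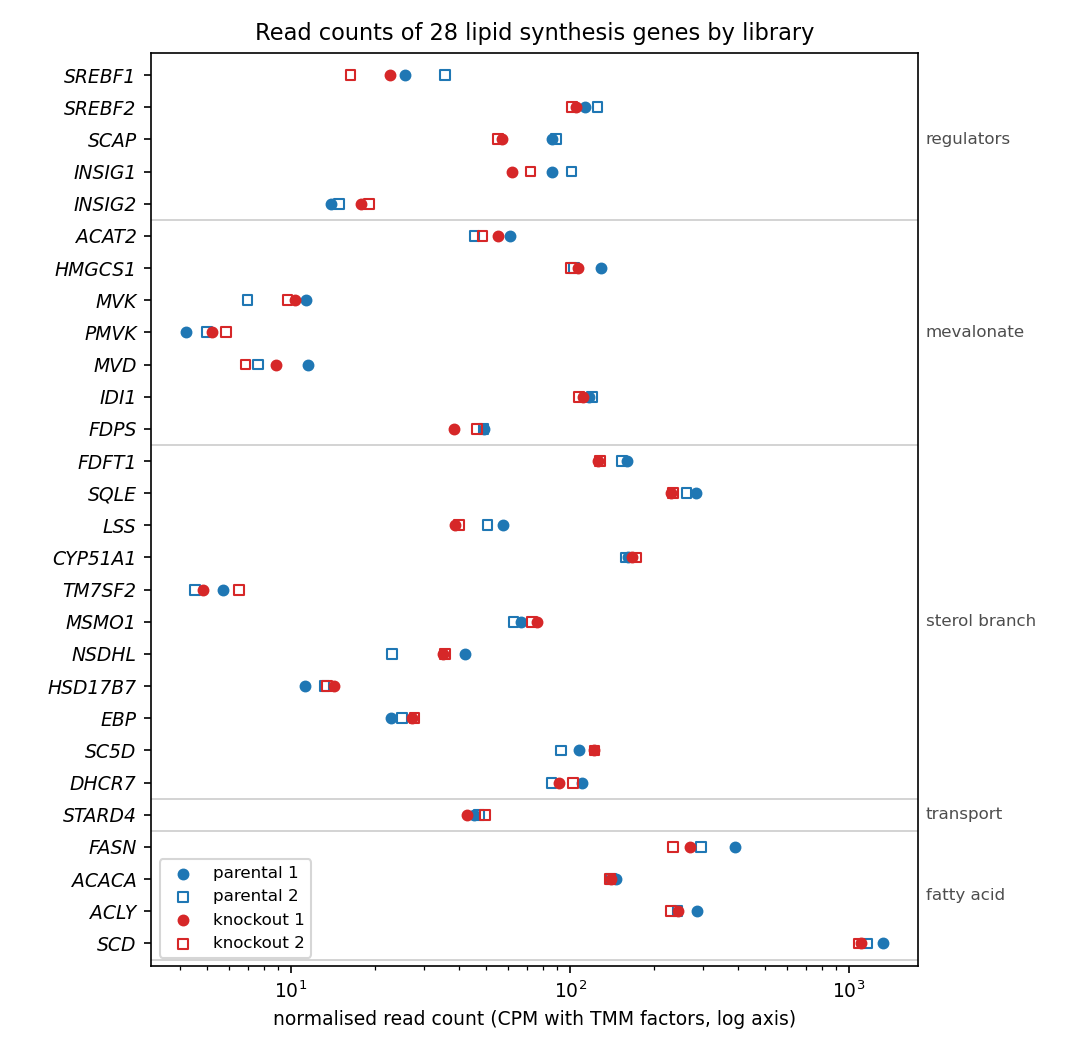
Normalised read count (CPM with TMM factors, log axis) of each of the 28 genes in each library, grouped by role; filled circles are replicate 1, open squares replicate 2, blue parental, red knockout. SCD is highest at 1086 to 1324 CPM, the knockout libraries of SCAP (55.1 and 56.8) lie below both parental ones (86.5 and 89.2), and the 2 parental libraries of NSDHL (42 and 22.9) lie on either side of the knockout.

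The comparison asks how the loss of LARP7 bears on expression. None of the 28 genes passed the test over all 18484 genes with edgeR's quasi-likelihood test (0 higher and 0 lower), where 0.833% of all genes tested were called. At an unadjusted p under 0.05, 6 genes were lower (21.4% of the 28, against 7.67% of all genes tested) and 0 were higher (against 6.58%). DESeq2 called 1, SCAP, lower (2.48% of all genes tested), and limma voom called 0 (0.812% of all genes tested). The log2 fold changes, knockout over parental, were below 0 in 18 genes and above 0 in 10, from -0.65 to 0.36, with a median of -0.07 beside 0.002 over all genes tested. The median rested on the parental libraries: it was -0.003 without parental replicate 1 and -0.21 without parental replicate 2, beside 0.01 and 0.008 over all genes tested in those fits. The 2 groups of libraries did not overlap in 12 genes that were lower (42.9%, against 22.7% of all genes tested) and in 7 that were higher (25%, against 23.5%). In 13 of the 28, the difference between the 2 libraries of 1 group was larger than that between the group means, as it was in 12524 of the 18484 genes tested. Scaling by library size alone moved the median of the 28 to 0.02 and that of all genes tested to 0.095, so that the members' median minus that of all genes was -0.075 with either scaling. The same difference was -0.013 without parental replicate 1 and -0.21 without parental replicate 2. With log2(TPM + 1) values both medians were 0.32, and 14 of the 28 lay below the median of all genes.

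**Figure D2:**
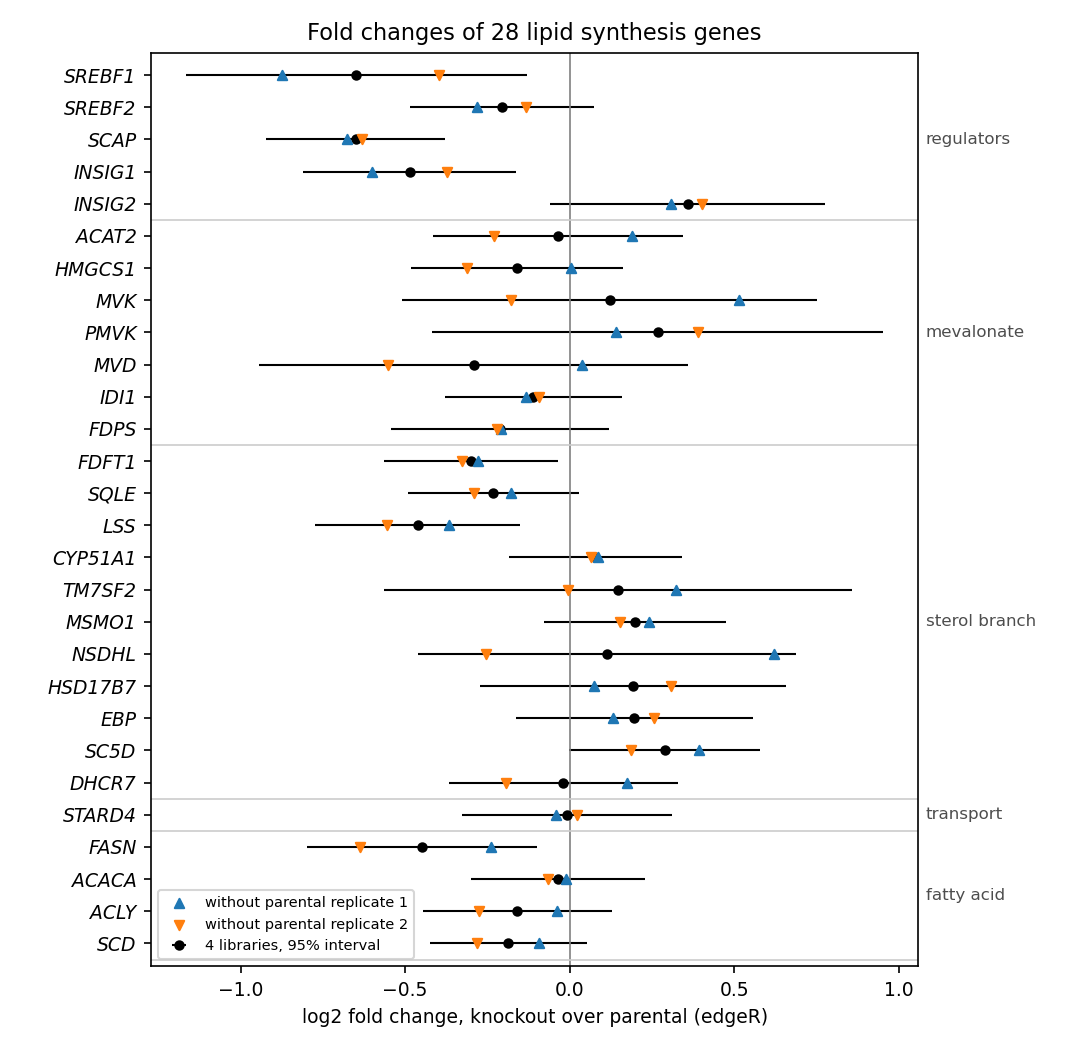
Log2 fold change, knockout over parental, of each gene with edgeR (black points, all 4 libraries; bars, 95% interval) and the same without 1 parental library (blue and orange triangles). The intervals of SREBF1, SCAP, INSIG1, FDFT1, LSS and FASN lie below 0, and NSDHL moves from -0.25 to 0.62 with the parental library left out.

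Of the 5 sterol regulators, 4 were lower in both knockout libraries than in both parental ones and 1 was higher, and 0 passed over all genes. By the same measure 22.7% of all genes tested were lower and 23.5% higher. SCAP (ENSG00000114650, chromosome 3, 47413694 to 47477126, GRCh38), the escort of the SREBP precursors, had 86.5 and 89.2 CPM in parental cells against 56.8 and 55.1 in the knockout. Both groups were tight and far apart. The fold change was 1.57-fold lower (log2 -0.65, SE 0.12), just short of the threshold (edgeR adjusted p = 0.053). SCAP passed with DESeq2 (adjusted p = 0.00382), with no filter (edgeR adjusted p = 0.00322) and with protein-coding genes only (0.0318), and not with limma voom (0.0524) or with an offset for transcript length (0.136). Over its alternatives the adjusted p ran from 3.05e-05 to 0.531. The log2 fold change of SCAP was -0.68 without parental replicate 1 and -0.63 without parental replicate 2, where the spread rests mostly on the knockout pair. Without knockout replicate 1 it was -0.67, and without knockout replicate 2 it was -0.62.

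INSIG1 (chromosome 7, 155297776 to 155310235), which retains SCAP and is itself an SREBP target, was at 86.5 and 101 CPM in parental cells against 61.8 and 72.1 in the knockout. Its groups did not overlap, and on the log2 scale the parental libraries differed by 0.23 and the knockout libraries by 0.22. Its log2 fold change was -0.49 (SE 0.14, edgeR adjusted p = 0.175). This was -0.60 without parental replicate 1 and -0.37 without parental replicate 2, and -0.38 and -0.60 without knockout replicates 1 and 2. INSIG2 (chromosome 2, 118088452 to 118110997), the second retention protein, lay the other way, at 13.9 and 14.8 against 17.8 and 19.1 CPM (log2 0.36, SE 0.18, edgeR adjusted p = 0.424). The ratio of INSIG1 to INSIG2 reads within a library, which no scaling factor touches and which was chosen after its values were seen, was 6.21 and 6.82 in parental cells against 3.47 and 3.79 in the knockout. The ratio was lower in both knockout libraries, and with 2 libraries a group it was given no test.

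SREBF1 (chromosome 17, 17810399 to 17837002) had 25.6 and 35.7 CPM in parental cells against 22.7 and 16.3 in the knockout. The highest knockout library lay close to the lowest parental one, and each pair was spread widely. The log2 fold change was -0.65 with an SE of 0.23 and a 95% interval from -1.17 to -0.13 (edgeR adjusted p = 0.254). Leaving out 1 library moved it between -0.90 and -0.40, and it passed without parental replicate 1 (-0.88, edgeR adjusted p = 0.00769). Its exons overlap those of RAI1 on the opposite strand, and the strand setting of the counts is not given in the sources used here. SREBF2 (chromosome 22, 41833079 to 41907308) was steadier, at 113 and 125 against 105 and 101 CPM (log2 -0.21, SE 0.12, edgeR adjusted p = 0.5). The reads of the 5 regulators summed to 326 and 366 CPM in parental cells and to 264 and 264 in the knockout.

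Of the 7 mevalonate and isoprenoid enzymes, 5 lay below 0 and 2 above, with a median of -0.11, and 0 had an unadjusted p under 0.05. HMGCS1 (chromosome 5, 43289395 to 43313512), which makes HMG-CoA, was at 129 and 103 CPM in parental cells against 107 and 101 in the knockout. Its groups overlapped, and its 95% interval ran from -0.48 to 0.16 on the log2 scale. IDI1, the isomerase that gives the second isoprenoid unit, was at 117 and 120 against 111 and 108 CPM, with a 95% interval from -0.38 to 0.16. FDPS, which makes farnesyl diphosphate, was at 49.3 and 48.9 against 38.4 and 46.4 CPM (log2 -0.21). ACAT2, which condenses acetyl-CoA and whose exons overlap those of TCP1 on the opposite strand, was at 60.7 and 45.4 against 55.2 and 48.6. For this gene the parental libraries enclosed both knockout libraries. The kinases MVK (11.3 and 6.99 against 10.3 and 9.7 CPM) and PMVK (4.2 and 5 against 5.19 and 5.86) and the decarboxylase MVD (11.5 and 7.62 against 8.81 and 6.86) had few reads and wide 95% intervals, from -0.51 to 0.75 for MVK, -0.42 to 0.95 for PMVK and -0.94 to 0.36 for MVD.

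Among the 11 sterol branch enzymes the early steps and most of the late steps lay on different sides of 0. The squalene and lanosterol steps FDFT1, SQLE and LSS were lower in both knockout libraries, and 7 of the 8 later enzymes lay above 0, without any of the 11 passing over all genes. In 3 of the 11, the later enzymes NSDHL, TM7SF2 and DHCR7, the groups overlapped. The split into early and late was made after the values were seen, and the difference between them was not tested. LSS (chromosome 21, 46188141 to 46228824), which closes the sterol rings, was at 57.6 and 50.6 CPM in parental cells against 38.6 and 40 in the knockout. Its exons overlap those of AP001468.1 and AP001469.1 on the opposite strand. Its groups did not overlap, and its log2 fold change was -0.46 (SE 0.14, edgeR adjusted p = 0.179). It passed without parental replicate 2 (-0.55, adjusted p = 0.00251) and not without parental replicate 1 (-0.37, 0.078). FDFT1 (chromosome 8, 11795573 to 11839309) was at 159 and 154 against 126 and 128 CPM, with each pair close together (log2 -0.30, SE 0.12, edgeR adjusted p = 0.295). SQLE (chromosome 8, 124998497 to 125022283), an epoxidase known as a slow step of the pathway, was at 283 and 262 against 230 and 234 CPM (log2 -0.23, SE 0.11, edgeR adjusted p = 0.406).

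Of the later enzymes, SC5D, a sterol desaturase, had the largest difference, from 107 and 92.8 CPM in parental cells to 122 and 122 in the knockout. Its log2 fold change was 0.29 (SE 0.13, edgeR adjusted p = 0.355), and it passed without parental replicate 1 (0.39, adjusted p = 0.0428) and not without parental replicate 2 (0.19, 0.398). CYP51A1, the lanosterol demethylase, was at 161 and 159 against 166 and 172 CPM, with a 95% interval from -0.18 to 0.34. MSMO1, which starts the removal of the next methyl groups, was at 66.8 and 62.7 against 75.8 and 72.9 CPM (log2 0.20, SE 0.12), and the groups did not overlap. EBP, the sterol isomerase (22.9 and 24.9 against 27.1 and 27.7), and HSD17B7, a sterol ketone reductase (11.2 and 13.2 against 14.3 and 13.5), were also higher in both knockout libraries. TM7SF2, a sterol reductase with few reads (5.68 and 4.53 against 4.84 and 6.51 CPM), overlapped between groups, and its exons overlap those of VPS51 on the same strand. NSDHL, a sterol dehydrogenase on chromosome X, had 42 and 22.9 CPM in parental cells around 35.1 and 35.6 in the knockout. The knockout libraries lay between the 2 parental ones, and its log2 fold change of 0.11 became 0.62 without parental replicate 1 (edgeR adjusted p = 0.0199) and -0.25 without parental replicate 2 (0.322). DHCR7, the reductase of the last step, was at 111 and 85.8 against 91.5 and 103 CPM, so that the groups overlapped (log2 -0.02, SE 0.15).

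STARD4, a carrier that moves sterol between membranes, was at 45.2 and 47.2 CPM in parental cells against 42.5 and 49.5 in the knockout, with a 95% interval of -0.33 to 0.31 around a log2 fold change of -0.01. All 4 fatty acid synthesis enzymes lay below 0, with a median of -0.17, and 0 passed over all genes. Only FASN kept its sign in every alternative. ACACA turned in 4 of them (to 0.06 with library size alone), and ACLY and SCD in 1 each, with log2(TPM + 1). FASN (chromosome 17, 82078333 to 82098332), the fatty acid synthase, was at 389 and 295 CPM in parental cells against 268 and 234 in the knockout. Its groups did not overlap, but the parental libraries differed by 0.40 on the log2 scale, close to the fold change of -0.45 (SE 0.15, edgeR adjusted p = 0.242). FASN passed without parental replicate 2 (-0.64, edgeR adjusted p = 5.46e-05) and not without parental replicate 1 (-0.24, 0.225). SCD (chromosome 10, 100347124 to 100364834) was at 1324 and 1163 against 1099 and 1086 CPM (log2 -0.19, SE 0.10, edgeR adjusted p = 0.469), and it too passed without parental replicate 2 (-0.28, adjusted p = 0.027) and not without parental replicate 1 (-0.093, 0.499). ACLY, which supplies acetyl-CoA from citrate, was at 286 and 243 against 244 and 229 CPM. ACACA, which carboxylates acetyl-CoA, was at 146 and 140 against 140 and 139, with a 95% interval from -0.30 to 0.23.

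The parental libraries differed from each other in a pattern that followed the roles. All 5 regulators were higher in parental replicate 2, and 18 of the 22 enzymes were higher in parental replicate 1, beside 49.3% of all genes tested that were higher in replicate 1. In the knockout 11 of the 22 enzymes were higher in replicate 1, beside 9087 of the 18484 genes tested. By role these were 4 of 4 fatty acid enzymes, 5 of 7 mevalonate and isoprenoid enzymes and 2 of 11 sterol branch enzymes. The median gap between the parental replicates was 0.20 on the log2 scale over the 28 genes, and 0.082 between the knockout replicates, against 0.32 and 0.19 over all genes tested. The gap was 0.87 for NSDHL, 0.69 for MVK and 0.59 for MVD, and it was 0.012 for FDPS, 0.021 for CYP51A1 and 0.045 for SCAP. Leaving out either parental library gave 5 calls each among the 28, where 11.4% of all genes tested were called without replicate 1 and 9.27% without replicate 2: SCAP, INSIG1 and SREBF1 lower and SC5D and NSDHL higher without replicate 1, and SCAP, INSIG1, LSS, FASN and SCD lower without replicate 2. With any 1 of the libraries left out, the log2 fold change ran from -0.68 to -0.62 for SCAP and from -0.60 to -0.37 for INSIG1.

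Some of these genes lie where their neighbours were lower too. For each gene the median log2 fold change of the nearest tested protein-coding genes was taken, 30 on each side where the chromosome had them, with an average log2 CPM above 3; over all such genes the median was 0.02. The lowest medians belonged to INSIG1 (-0.38 over 40 neighbours, 39 of them below 0), SCAP (-0.35 over 60, 59 below 0), LSS (-0.29 over 36, 33 below 0) and SQLE (-0.28 over 60, 49 below 0). Relative to these neighbours, the log2 fold change was -0.10 for INSIG1, -0.30 for SCAP, -0.17 for LSS and 0.05 for SQLE. SREBF1 and FASN, the other genes far below 0, had neighbours with medians of -0.04 and -0.04, and lay 0.60 and 0.40 below them. INSIG2 had neighbours at 0.04. At the other end, STARD4 lay among genes with a median of 0.19 and HMGCS1 among genes with 0.15. Without SCAP, INSIG1, LSS and SQLE, the median of the other 24 genes was -0.03. Of these 24, 3 were lower and 0 higher at an unadjusted p under 0.05, beside 7.67% and 6.58% of all genes tested. The part of the neighbourhood in each gene's value was not tested.

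**Figure D3:**
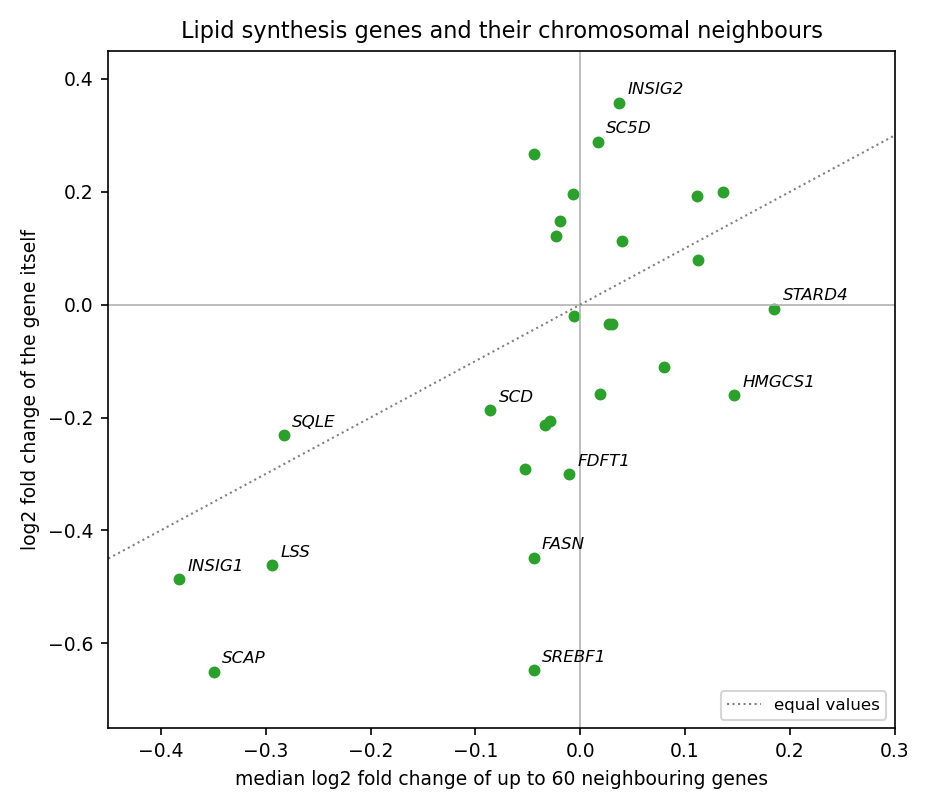
Log2 fold change of each of the 28 genes against the median log2 fold change of up to 60 neighbouring protein-coding genes; each point is a gene and the dotted line marks equal values. INSIG1, SCAP, LSS and SQLE lie at neighbour medians from -0.38 to -0.28, while SREBF1 and FASN lie at -0.04.

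The use of transcripts could be tested in 23 of the 28 genes with diffSpliceDGE, and 0 passed over all genes, where 0.686% of the 9475 genes tested were called. At an unadjusted p under 0.05 there were 2, DHCR7 and HSD17B7. With limma's diffSplice 0 of all 9475 genes were called, so that its count says nothing of the 28. The protein-coding transcript DHCR7-202 held 5.46 and 40.6% of the gene's reads in parental against 0.00179 and 1.75e-05% in knockout libraries, while DHCR7-201 held 83.3 and 51.1% against 86.8 and 86.7% (diffSpliceDGE adjusted p = 0.147). The share of DHCR7-202 was high in 1 parental library only. HSD17B7-203, a short protein-coding transcript, had 10.1 and 17.7 reads in parental and 0 in both knockout libraries (adjusted p = 0.306). INSIG2-201, a protein-coding transcript, took 48.7 and 50.9% of INSIG2 reads in parental cells against 68.6 and 69.3% in the knockout, and FDFT1-201 took 17.4 and 19% of FDFT1 reads against 27.1 and 26%. Both shares were higher in both knockout libraries, and neither gene passed (diffSpliceDGE adjusted p = 1 for each). These 2 transcripts were chosen after their values were seen. In 27 of the 28 genes the transcript with the highest mean share of reads over the libraries was protein coding. The exception was HSD17B7, where HSD17B7-208, annotated as a processed transcript, held 45.9 to 54.3% of reads. In MVK the retained-intron transcript MVK-209 was above the leading MVK-201 in parental replicate 2 (53.2 against 43.5%) and in both knockout libraries. Exons of MVK overlap those of MMAB on the opposite strand, and the strand setting of the counts is not given.

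**Figure D4:**
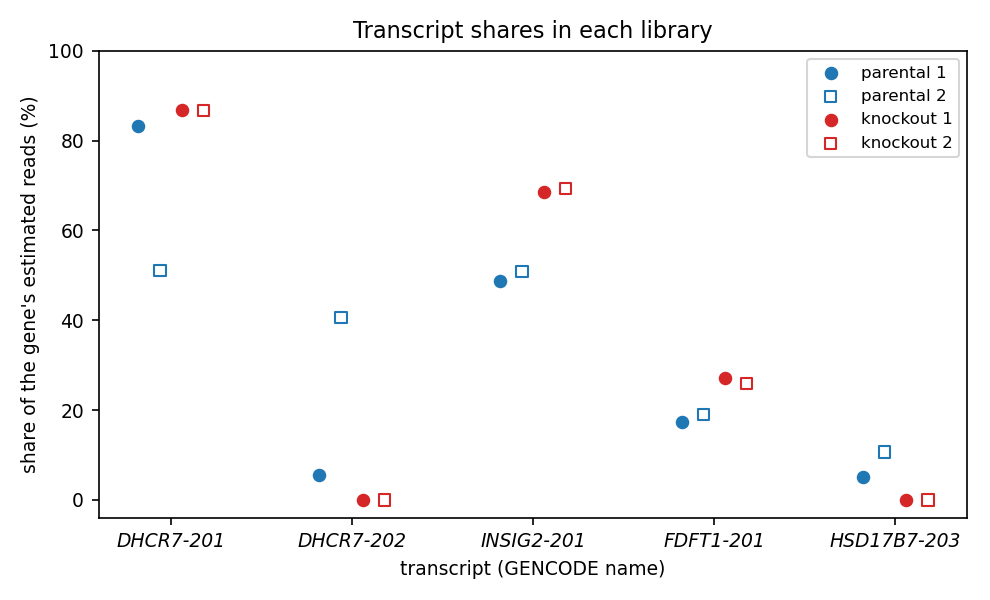
Share of a gene's estimated reads held by each of 5 transcripts, in percent, in each library (blue parental, red knockout; circles replicate 1, squares replicate 2). DHCR7-202 is at 40.6% in parental replicate 2 alone, and INSIG2-201 is at 48.7 and 50.9% in parental cells against 68.6 and 69.3% in the knockout.

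Of 36 other genes around the pathway, all tested, 0 passed over all genes with edgeR, where 0.833% of all genes tested were called. At an unadjusted p under 0.05, 0 were higher and 4 lower, beside 6.58% and 7.67% of all genes tested. DESeq2 called 1, ME1, beside 2.48% of all genes tested, and limma voom 0 beside 0.812%. Their median was -0.08, with 24 below 0. ME1, the malic enzyme that supplies NADPH for fatty acid synthesis, was at 45.2 and 43.5 CPM in parental cells against 27.8 and 21 in the knockout, a log2 fold change of -0.86 (SE 0.17, edgeR adjusted p = 0.0676). Its groups were far apart, and ACSS2, which makes acetyl-CoA from acetate, was at 13 and 11.1 against 8.46 and 9.7 CPM. Of 9 genes of SREBP processing and degradation, 7 lay below 0 with a median of -0.09, and PAQR3, a Golgi protein that tethers SCAP, was at 96.4 and 103 against 112 and 114 CPM (log2 0.17, edgeR adjusted p = 0.566). Of 10 genes of sterol transport and storage, GRAMD1A, a sterol transfer protein, was at 42.9 and 48.3 against 32.3 and 34.5 CPM (edgeR adjusted p = 0.214), and NPC2, which carries sterol out of lysosomes, was at 31.6 and 30.2 against 36.3 and 37.6. Among 4 liver X receptor genes and targets, MYLIP was at 10.6 and 13.1 against 14.9 and 17.4 CPM and the receptor gene NR1H2 at 4.49 and 4.53 against 6.54 and 6.51. Among 6 genes of isoprenoid branches, PDSS2 (24.3 and 21 against 16.2 and 16.9 CPM) and GGPS1 (92.9 and 89.5 against 76.3 and 73.7), both makers of longer isoprenoid chains, were lower in both knockout libraries and did not pass (edgeR adjusted p = 0.3 and 0.335).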

How the data were processed

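Total RNA from TRIzol extraction went into Ovation SoLo libraries, per the labels' protocols. The authors deposited, per transcript and library, estimated counts and TPM (named in the file headers) and an effective length. The submitters' processing notes name Salmon 1.6, build hg38, edgeR 3.24.3, STAR 2.5.3a and cutadapt 1.6 without a role; strandedness and annotation are not stated. Salmon splits reads among similar transcripts, an error the tests do not see.

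Transcripts were joined to GENCODE v29 (197318 of 198002 matched), and counts were summed per gene and rounded. Genes were tested with edgeR 4.0.16 in R 4.3.3 (filterByExpr, TMM, quasi-likelihood F test, Benjamini-Hochberg adjusted p under 0.05, over all genes); the SE is the log2 fold change over the root of F, and 95% intervals use its t quantile. Transcript usage was tested with diffSpliceDGE over transcripts with at least 10 reads and 5% of the gene in 2 libraries. The alternatives used DESeq2 1.42.0, limma 3.58.1, other scalings, filters, a length offset and log2(TPM + 1). A block for replicate number and leaving out single libraries were alternatives too. Only the edgeR gene test was run on simulated data, with changes of 2-fold or more, larger than any among the 28 genes. Of the 28 genes, 12 overlap exons on the opposite strand and 2 on the same strand, and pseudogenes of the same name, known for 4, held at most 41.5 reads each. Members and lists were chosen with earlier results of these data known. Named were all 28 genes, LARP7 and 7SK, and in each other list genes past the threshold and the 2 with the smallest p. A gene that this rule names is not reported here.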

Additional observations from a re-analysis of the deposited data

How the results depend on the processing

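Over 15 alternatives, 12 of the 28 genes kept their sign (5 below 0, 7 above) and 16 turned in at least 1. The sign turned with library size alone for ACACA (0.0582), ACAT2 (0.0596), DHCR7 (0.0766) and STARD4 (0.0865), with the length offset for ACACA (0.0225), DHCR7 (0.25) and STARD4 (0.29), and with no filter for STARD4 (0.0055). With log2(TPM + 1) the median of all genes moved to 0.32 and that of the 28 to 0.32, and ACACA (0.42), ACAT2 (0.31), ACLY (0.20), DHCR7 (0.67), FDFT1 (0.0874), FDPS (0.16), HMGCS1 (0.31), IDI1 (0.20), SCD (0.22), SQLE (0.17), SREBF2 (0.32) and STARD4 (0.65) turned. With each library's median subtracted, an alternative added after seeing the data, ACACA (0.0821), DHCR7 (0.33) and STARD4 (0.31) still did. With single libraries left out, the ranges were -0.23 to 0.19 for ACAT2, -0.19 to 0.17 for DHCR7, -0.31 to 0.0043 for HMGCS1, -0.55 to 0.0369 for MVD, -0.18 to 0.52 for MVK, -0.25 to 0.62 for NSDHL, -0.12 to 0.10 for STARD4 and -0.075 to 0.35 for TM7SF2.

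All genes called numbered 154, and 459 with DESeq2, 831 with no filter, 96 with the stricter filter, 91 with the length offset, 33 with log2(TPM + 1), 19 when centred, and 200 to 2265 with a library left out. Library size alone gave 106 higher and 82 lower against 61 and 93. Of the 28 genes, 1 was called with DESeq2, with no filter and with protein-coding genes only, and 0 to 5 with a library left out; of the other pathway genes, 1, 1, 1 and 0 to 3. Replicates share only a number (the deviations of same-numbered libraries correlated at 0.133 over 18484 genes); the replicate block raised all calls to 1656 (8.96%), those of the 28 to 5 (FASN, INSIG1, LSS, SCAP and SREBF1, all lower) and those of the other pathway genes to 2. In the other 9 alternatives 0 of the 28 were called, counting those that left out a knockout library. For transcript usage 0 of the 28 were called where 80, 92, 21 and 2 of all genes were (a minimum of 30 reads, without parental replicate 1, a 10% share, without parental replicate 2); limma's diffSplice, the replicate block and leaving out either knockout library called 0 of all genes and so test nothing here. The causes were not tested.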
